A study of Mus musculus with 12 samples.

Results

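The proteasome subunit genes of mouse dorsal root ganglia (DRG) were taken as every row of both count tables whose symbol starts with Psma, Psmb, Psmc, Psmd or Psme followed by a digit. The rule found 48 of the 44345 gene names. Of these, 43 encode subunits, activators or assembly chaperones, and 5 do not: Psmc3ip, a factor of meiotic recombination, and the pseudogene rows Psmb5-ps, Psmb6-ps, Psmb7-ps2 and Psme2b-ps. The 43 genes comprised 7 of the alpha ring, 7 of the beta ring, 3 catalytic subunits of the immunoproteasome, 2 tissue-specific forms, 6 ATPases and 11 other subunits of the cap, 3 chaperones with a Psmd symbol and 4 activators.

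C57BL/6 mice aged 5 to 8 weeks were kept for 10 days in standard housing (SH) or environmental enrichment (EE), and sciatic ganglia were sequenced either whole or as laser-captured neurons of at least 30 µm in diameter. Whole-DRG libraries pooled 2 mice each and captured-neuron libraries 3 mice each, with 3 libraries in each of the 4 groups and no manipulation of any gene in any group. In the deposited whole-DRG tables every column name, in both housings, holds the word Sham, and those of captured neurons do not; whether a sham procedure was done is not given in the sources used here. Whole-DRG libraries held 11343579 to 17036481 reads in genes. Captured libraries held 19296230 to 29434351, and EE replicate 1 was the deepest. Whole DRG went through a poly(A) kit (TruSeq mRNA) and captured neurons through a ribosomal depletion kit (RiboZero ScriptSeq). Reads were 100 bases long on lanes 4 to 6 for whole DRG and 125 bases on lanes 1 to 3 for captured neurons. Capture, kit, read length and lane therefore cannot be told apart between preparations. The labels do not state that replicate libraries stem from different animals, and the p-values therefore reflect only how far these libraries varied, possibly for technical reasons.

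The proteasome is the protease complex that degrades proteins tagged with ubiquitin. Its core is a barrel of outer alpha rings, which gate the entry, and inner beta rings, in which Psmb5, Psmb6 and Psmb7 carry the active sites. A cap of ATPases and non-ATPase subunits binds, unfolds and feeds in the substrate. Interferon-exposed and immune cells exchange the active subunits for Psmb8, Psmb9 and Psmb10, which alters the peptides made for antigen presentation. Neurons, which do not divide and have long axons, depend on the complex for protein turnover.

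The captured libraries were checked against the markers of their label. Large neuron markers (10 genes, among them Nefh and Pvalb) were present but not enriched, summing to 8214 to 10282 CPM (counts scaled to each library's reads in genes) in captured SH libraries against 14551 to 15536 in whole-DRG SH libraries. Myelinating Schwann cell markers (8 genes) summed to 939 to 1153 CPM after capture and to 6872 to 8398 CPM in whole DRG. Satellite glia markers (8 genes) fell less, with 2297 to 2586 and 2990 to 3259 CPM, so glial transcripts remained. Endothelial markers (8 genes) had 113 to 123 and 146 to 177 CPM, and macrophage markers (14 genes) 55.4 to 78.2 and 160 to 175. Lymphocyte and neutrophil markers (11 genes) had 3.67 to 7.01 and 58.3 to 152 CPM. Pan-neuronal markers (7 genes) had 4946 to 5176 and 8415 to 8436 CPM. Markers of nociceptors, mostly smaller neurons, summed to 3220 to 3833 CPM and to 3501 to 3940 CPM, so the capture was not free of their transcripts. The preparations were normalised separately, and these are levels set side by side. In bulk RNA, fewer cells of a type and less RNA per cell cannot be told apart.

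Upstream sequence was read from the RefSeq promoter table (build GRCm38.p6, from 250 bases before to 50 after each start), which matched 36 of the 43 genes; Psmb1, Psmb2, Psmb7, Psma8, Psmc3, Psmd3 and Psmd7 had no match. The motif TGACNNNGC, the core of the antioxidant response element bound by NRF1 and NRF2, was searched on both strands and lay in 6 of 36 promoters (16.67%), against 13.99% of all 27025 promoters. Of the active-site genes, Psmb5 and Psmb6 held it, and among cap genes Psmc6 and Psmd12 did. CCAAT, the motif of NF-Y, lay on either strand in 14 of 36 promoters (38.89%), against 41.06% of all. In the alpha ring it was in 5 of 7 promoters. These shares describe letters in a window, not binding. The windows of Psmb5 (chr14:54618014-54618062, minus strand), Psmb6 (chr11:70525328-70525356, plus strand) and Psmd12 (chr11:107479278-107479309, plus strand) are shown because these genes recur in the housing comparisons, with the match to TGACNNNGC in capitals, 5′ to 3′ along the gene (in Psmd12 the match is on the opposite strand).
Psmb5: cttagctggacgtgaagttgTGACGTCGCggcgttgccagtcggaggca
Psmb6: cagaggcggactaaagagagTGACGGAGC
Psmd12: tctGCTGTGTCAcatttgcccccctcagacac

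The alpha ring windows are shown because CCAAT matches were frequent in that group, with the match in capitals (in the distal windows of Psma1 and Psma6 it is on the opposite strand). Psma7, the fifth, is not shown because its window overlaps an exon of the neighbouring gene Ss18l1. The windows shown lie at chr7:114276218-114276262 and chr7:114276190-114276234 (Psma1, minus strand, overlapping each other), chr13:14613168-14613212 (Psma2, plus strand), chr12:70974464-70974508 (Psma3, plus strand), and chr12:55384066-55384110 and chr12:55384173-55384217 (Psma6, plus strand).
Psma1 distal: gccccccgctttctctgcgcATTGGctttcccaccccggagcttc
Psma1 proximal: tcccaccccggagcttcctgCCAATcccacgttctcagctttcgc
Psma2: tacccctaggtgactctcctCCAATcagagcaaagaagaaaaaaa
Psma3: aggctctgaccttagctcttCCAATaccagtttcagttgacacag
Psma6 distal: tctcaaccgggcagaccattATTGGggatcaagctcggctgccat
Psma6 proximal: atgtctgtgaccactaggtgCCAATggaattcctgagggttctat

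The interferon regulatory factor element, searched on both strands, lay in 4 of 36 promoters (Psmb3, Psmd4, Psmd9 and Psme1, 11.11%), against 3.993% of all. None of the 3 promoters of the immunoproteasome catalytic genes held a match to it in this window.

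In standard housing, levels per length were compared between genes, as the authors' FPKM in whole DRG and, in captured neurons, as CPM per kilobase with the exon length implied by those FPKM. In whole DRG, the beta ring genes Psmb1 (215 ± 12.98 FPKM, SD, n = 3) and Psmb7 (194 ± 8.13 FPKM) and the alpha ring gene Psma2 (168 ± 7.70 FPKM) were highest, and the lid subunit Psmd11 was the lowest of the 31 core and cap genes (16.9 ± 0.780 FPKM). The 1 SD intervals of Psmb1 and Psmb7 touched. In captured neurons Psmb7 (152 ± 16.2 CPM per kilobase), Psma2 (137 ± 15.5) and Psmb1 (130 ± 12.4) were highest, with overlapping spreads, and Psmd11 again lowest (9.81 ± 0.218). The order of the 31 genes was alike in both preparations (Spearman rho 0.77, a description across genes, which share their libraries). The length is that of all annotated exons, so genes with many transcript forms are set low.

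Within roles, whole-DRG levels in SH ran from 46.4 ± 2.84 FPKM for Psma3 to the level of Psma2 in the alpha ring and from 44.5 ± 1.18 FPKM for Psmb3 to that of Psmb1 in the beta ring. The ATPases, which unfold the substrate, ran from 31.98 ± 1.17 (Psmc2) to 140 ± 5.45 FPKM (Psmc1), and the other cap genes from Psmd11 to 88.7 ± 4.05 FPKM (Psmd7). Chaperones ran from 4.43 ± 0.135 (Psmd9) to 20.5 ± 0.322 FPKM (Psmd5) and activators from 11.5 ± 0.712 (Psme1) to 33.2 ± 0.184 FPKM (Psme3), both overlapping the lower cap genes. In captured neurons the lowest and highest were Psma1 (39.04 ± 2.96 CPM per kilobase) and Psma2, Psmb5 (18.3 ± 1.82) and Psmb7, Psmc2 (26.3 ± 0.845) and Psmc6 (123 ± 6.43), Psmd11 and Psmd2 (86.7 ± 6.00), Psmd9 (2.43 ± 0.494) and Psmd5 (15.8 ± 1.77), and Psme1 (7.53 ± 1.498) and Psme4 (31.7 ± 1.48). The lowest beta ring gene thus differed between preparations, Psmb3 in one and Psmb5 in the other.

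Immunoproteasome genes lay far below the core. In whole DRG, Psmb10 had 23.3 ± 1.31 FPKM, Psmb8 4.24 ± 0.551 FPKM and Psmb9 0.931 ± 0.111 FPKM in SH, each separated from the next by more than its SD. The tissue-specific forms were near the limit of detection. Psma8, the testis alpha subunit, had 2 to 13 reads in whole-DRG libraries and 5 to 26 in captured ones. Psmb11, the thymus subunit, had 0 to 3 and 0 to 2 reads. The pseudogene rows had 0 to 11 reads in any library.

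Relative to the median core gene of the same libraries, Psmb5 stood apart between preparations. It lay at 107 ± 3.31% of the core median in whole DRG and at 37.6 ± 2.43% in captured neurons (SH, n = 3 each). Psmb10 lay at 28.0 ± 1.32% and 10.3 ± 1.04%. In pooled CPM they were 4.88-fold and 4.66-fold lower in captured neurons. The largest activator, Psme4, went from 23.2 ± 2.21% to 66.0 ± 9.97%, and the cap scaffold Psmd1 from 49.9 ± 2.00% to 124 ± 8.90%. Across the 41 genes above 1 CPM in whole DRG, 33 were lower in captured neurons, with a median log2 ratio of -0.45, against -0.30 over all 15225 such genes. The ratio moved with GC content among these genes (Spearman rho -0.49) as over all genes (-0.51). It also moved with exon length, with a rho of 0.27 among these genes and 0.53 over all genes. Psmb5 and Psmb10 have 56.6% and 56.5% GC. On their own strands, Psmb5 shares exonic sequence with Mir686 and Psmd1 with Gm21972. The part of GC content, of length and of these overlaps in these values was not tested.

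**Figure D1:**
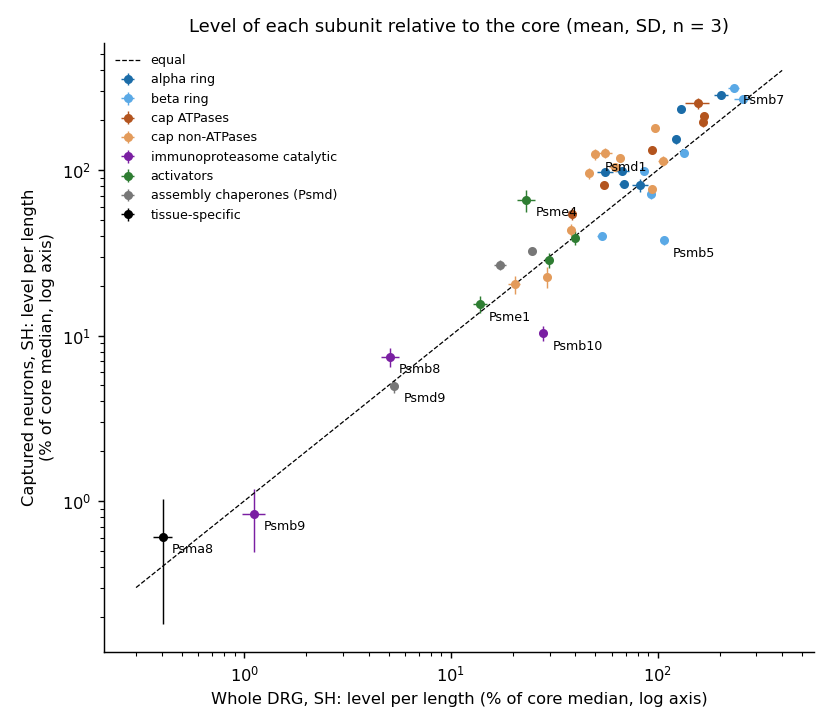
Level per length of each gene in SH as percent of the median core gene, whole DRG on the x axis and captured neurons on the y axis (both log axes, points are means and bars SD, n = 3, coloured by role). Psmb5 (107% and 37.6%) and Psmb10 (28.0% and 10.3%) fall below the dashed line of equality, and Psme4 (23.2% and 66.0%) and Psmd1 lie above it.

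In whole DRG, no proteasome gene was called different between EE and SH (edgeR quasi-likelihood test, Benjamini-Hochberg adjusted over 15845 genes, threshold 0.05), where 0.00631% of all genes were called. None of the 41 subunit and chaperone genes tested reached an unadjusted p under 0.05, against 2.9% of all genes (1.34% higher in EE). With the replicate number as a block, which pairs the libraries of a lane, 0.202% of all genes were called and still no proteasome gene. None had every EE library above every SH library (3.19% of all genes) or below (4.29%). Of the 31 core and cap genes 17 had a log2 fold change above 0, with a median of 0.0046, beside 0.0028 over all genes, of which 51.3% were above 0. The 41 estimates ran from -0.16 (Psme1) to 0.15 (Psmb9).

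The active-site gene Psmb5 (chr14:54614119-54618022) had 72.9, 78.7 and 81.7 CPM in SH and 64.2, 78.4 and 69.5 CPM in EE. EE replicate 1 was the lowest and the groups overlapped; the log2 fold change was -0.14 (SE 0.082). Psmb6 (chr11:70525367-70527858) had 134, 134 and 136 CPM in SH and 118, 150 and 124 in EE, so that EE lay on both sides of SH. Psmb7 (chr2:38588036-38644087), the trypsin-like subunit, had 238, 245 and 225 CPM in SH and 229, 252 and 231 in EE. Its groups overlapped, with a log2 fold change of 0.0081 (SE 0.069). In the same 3 EE libraries, replicate 1 was lowest and replicate 2 highest for all 3 active-site genes.

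The immunoproteasome genes spread more. Psmb8 (chr17:34197721-34201454) had 9.96, 12.4 and 12.5 CPM in SH and 8.01, 13.3 and 11.6 in EE. Psmb9 (chr17:34181987-34187764) had 3.53, 2.96 and 3.75 CPM in SH and 3.69, 4.60 and 3.098 in EE, and it overlaps an exon of Tap1 on the other strand. Psmb10 (chr8:105935735-105938444) had 28.6, 31.5 and 28.9 CPM in SH and 24.0, 34.0 and 29.2 in EE. For all 3 genes the groups overlapped.

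Among the other roles, the genes with the smallest p were Psma2 and Psma5 in the alpha ring (log2 fold changes 0.07 and 0.06), Psmb1 in the beta ring after Psmb5 (0.081), Psmc6 and Psmc4 among the ATPases (0.07 and -0.019), and Psmd1, a scaffold, and Psmd3 in the rest of the cap (0.078 and -0.059). Psmb1 had 240, 215 and 215 CPM in SH and 231, 235 and 243 in EE, overlapping by 1 SH library. Psma2 had 168, 158 and 152 CPM in SH and 158, 172 and 173 in EE, and Psma5 had 129, 134 and 143 and then 125, 151 and 146. In both alpha genes EE replicate 1 lay among or below the SH libraries. Psmc6 had 229, 191 and 192 CPM in SH and 224, 204 and 215 in EE, and Psmc4 had 96.9, 102 and 102 and then 91.4, 108 and 96.7. Psmd1 had 190, 183 and 194 CPM in SH and 210.4, 190.2 and 198 in EE, and Psmd3 had 120, 116 and 126 and then 113, 115 and 119.6. None of these genes separated the housings.

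Activators, which open the core without ubiquitin, did not separate them either. The activator Psme1, a subunit of the interferon-inducible PA28 ring, had 25.9, 26.8 and 23.6 CPM in SH and 19.3, 26.1 and 22.6 in EE. Its partner Psme2 had 43.7, 43.7 and 44.1 CPM in SH and 39.8, 48.1 and 47.1 in EE. The nuclear activator Psme3 had 98.7, 98.7 and 97.6 CPM in SH and 108, 90.3 and 96.6 in EE. Psme4, the PA200 activator, had 172, 149 and 164 CPM in SH and 185, 172 and 169 in EE. The highest SH library of Psme4 exceeded the lower pair of EE libraries.

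The same comparison in captured neurons also called no proteasome gene (0 of 42 subunit and chaperone genes, edgeR quasi-likelihood test, Benjamini-Hochberg adjusted over 16186 genes), where 0.0185% of all genes were called. At an unadjusted p under 0.05, 7 of the 42 were higher in EE (Psmb7, Psmb1, Psmd13, Psmd2, Psmd12, Psmc3 and Psmc4) and none lower, against 7.3% of all genes higher. That count moved with single libraries and settings, as did that over all genes. In either direction, and with Psmc3ip among the 43 genes tested, it was 7, against 15.9% of all genes. It was 13 without SH replicate 1 (2754 of all 16883 genes), 15 without EE replicate 3 (2154 of 16576) and 5 without SH replicate 3 (2127 of 16805). With the replicate block it was 16 (2860 of 16186), and without a filter on low counts 14 of 47 rows (3519 of 36332). Every EE library lay above every SH library for 6 of 42, against 10.2% of all genes, so that count is near the background. Signs leaned one way in the core and cap: 27 of 31 estimates were above 0, with a median log2 fold change of 0.14, where 49.9% of all genes were above 0 with a median of -0.00059.

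By role, all 14 core genes had an estimate above 0 (median 0.16; 0.095 in the alpha ring and 0.19 in the beta ring), as did 13 of 17 cap genes (median 0.12; 0.15 for the ATPases and 0.11 for the others). The 3 chaperones had a median of 0.19. The 4 activators had a median of -0.011 and the 3 immunoproteasome catalytic genes of -0.023. Since no gene passed the test, these are signs and medians, not changes.

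Summed over the 14 core genes, SH libraries had 1611, 1384 and 1450 CPM and EE libraries 1815, 1586 and 1595 CPM. EE replicate 1 was highest, and SH replicate 1 lay above both other EE libraries, so the groups overlapped. The 17 cap genes summed to 2535, 2312 and 2413 CPM in SH and to 2739, 2530 and 2595 CPM in EE, with SH replicate 1 again above EE replicate 2. Without EE replicate 1 the median of the 31 genes was 0.074 (27 above 0), and within lane 3 alone, which holds SH replicates 1 and 3 and EE replicates 2 and 3, it was 0.039 (22 above 0). Of the captured libraries, only EE replicate 1 was on lane 1 and only SH replicate 2 on lane 2. Lane and housing cannot be told apart for these libraries.

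**Figure D2:**
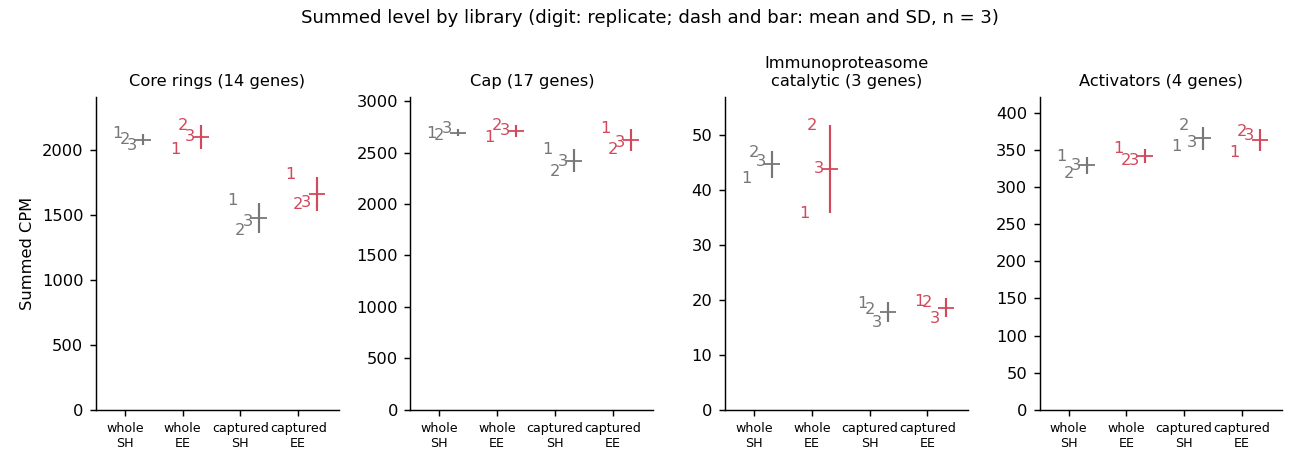
Summed CPM (y axis, from 0) of the core, cap, immunoproteasome catalytic and activator genes in every library, by preparation and housing (digits are replicate numbers, dash and bar the mean and SD, n = 3). In captured neurons the core sums run from 1384 to 1611 in SH and from 1586 to 1815 in EE and overlap.

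Psmb7 had the smallest p of the subunits, with 202, 169 and 186 CPM in captured SH and 249, 224 and 218 CPM in captured EE. Every EE library lay above every SH library, with a log2 fold change of 0.31 (SE 0.082, adjusted p 0.137, edgeR quasi-likelihood test, Benjamini-Hochberg adjusted). With DESeq2 its adjusted p was 0.0247 (where 3.12% of all genes were called) and without a filter on low counts 0.00716 (2.48% of all genes called); over the other alternatives it was not called. An exon of Psmb7 overlaps Nek6 on the other strand, and Nek6 had a log2 fold change of 0.35 (SE 0.10), also not called. Whether the counting used strand is not given in the sources used here, so reads of the overlap cannot be assigned. The same holds for exons shared across strands by Psmc3 with Slc39a13, Psmd1 with Htr2b, Psme1 with Emc9, and Psma4, Psma5, Psmb8, Psmd3 and Psmd9 with genes known only by clone or predicted-gene names.

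Psmb1, a structural beta subunit, had 146, 126 and 137 CPM in SH and 178, 158 and 151 in EE, with no overlap and a log2 fold change of 0.25 (SE 0.083). Psmb5 had 17.5, 16.2 and 14.5 CPM in SH and 19.5, 18.1 and 15.7 in EE. Psmb6 had 99.2, 87.9 and 84.1 CPM in SH and 122, 96.6 and 92.2 in EE. SH replicate 1 lay within the EE range for both, and SH replicate 2 also did for Psmb5. In the alpha ring, Psma5 had 110, 88.1 and 100 CPM in SH and 130, 109 and 107 in EE, and Psma4 had 134, 106 and 106 CPM and 152, 128 and 124. Both overlapped through SH replicate 1.

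In the cap, Psmd13, a lid subunit (chr7:140881968-140898643, sharing exonic sequence with Sirt3 on the other strand), had 74.2, 68.5 and 74.0 CPM in SH and 87.9, 85.0 and 82.0 CPM in EE. The groups did not overlap, with a log2 fold change of 0.24 (SE 0.067, adjusted p 0.16, edgeR quasi-likelihood test, Benjamini-Hochberg adjusted). The base scaffold Psmd2 had 374, 338 and 349 CPM in SH and 405, 393 and 406 in EE, also without overlap (log2 fold change 0.18, SE 0.062). Of the ATPases, Psmc3 had 177, 160 and 169 CPM in SH and 210, 184 and 187 in EE, without overlap, and Psmc4 had 94.5, 79.5 and 85.9 CPM and 102, 101 and 93.0, overlapping at SH replicate 1. Psmd12, whose promoter window is printed above, had 170, 157 and 164 CPM in SH and 196, 180 and 184 in EE. The lid subunit Psmd11 had the lowest estimate of the cap (-0.12, SE 0.078).

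**Figure D3:**
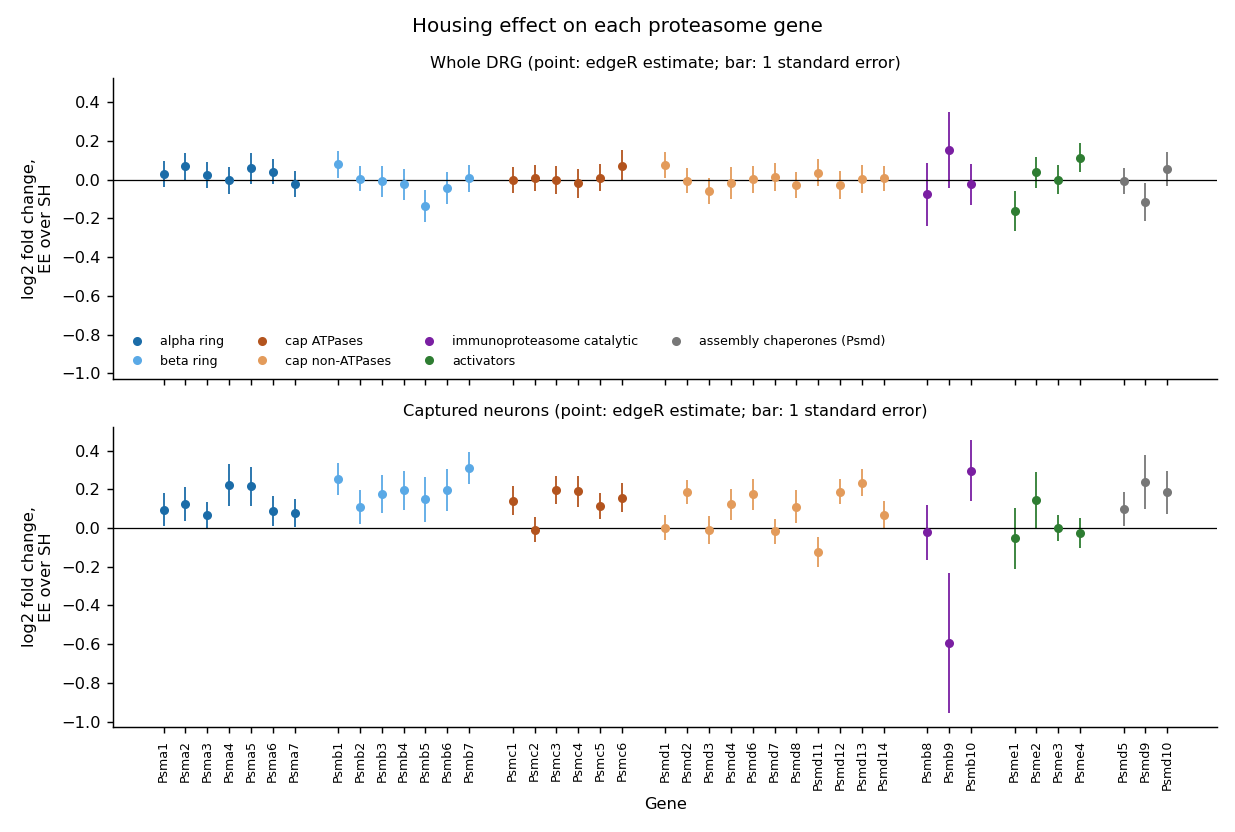
Log2 fold change of EE over SH (y axis) for each gene, grouped and coloured by role, in whole DRG (top) and captured neurons (bottom); points are edgeR estimates and bars 1 standard error. In captured neurons all 14 core genes lie above 0 and Psmb7 is highest of them at 0.31, while whole-DRG estimates run from -0.16 to 0.15.

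The 3 immunoproteasome genes and 4 activators, whose medians lay near 0 in captured neurons, were read library by library. Psmb8 had 10.9, 10.6 and 8.22 CPM in SH and 10.1, 10.1 and 9.04 in EE. Psmb9 had 1.71, 1.98 and 0.827 CPM in SH and 1.18, 0.914 and 0.872 in EE, from 16 to 42 reads per library. Psmb10 had 6.70, 5.74 and 6.77 CPM in SH and 8.45, 8.53 and 6.61 in EE (log2 fold change 0.30, SE 0.16). The groups of all 3 genes overlapped. Psme1 had 20.1, 16.6 and 13.7 CPM in SH and 18.7, 15.9 and 13.8 in EE, and Psme2 had 24.2, 23.9 and 25.3 CPM and 33.7, 26.0 and 21.3. Psme3 had 56.6, 54.9 and 56.8 CPM and 54.2, 58.1 and 56.1, and Psme4 253, 288 and 265 CPM and 240, 275 and 279. All 4 activators overlapped between housings.

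Of the symbol matches that are not subunits, Psmc3ip had 9, 32 and 9 reads in captured SH and 31, 39 and 35 in captured EE. It was called within lane 3 alone (log2 fold change 1.95, adjusted p 0.0304, edgeR quasi-likelihood test, Benjamini-Hochberg adjusted, 4.06% of all genes called) and not over all libraries (0.90, SE 0.48), and it overlaps an exon of Mlx on the other strand.

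Fold changes in captured neurons moved with exon length. Over all genes the median log2 fold change was 0.097 below 1500 bases, 0.047 from 1500 to 3000, -0.010 from 3000 to 6000 and -0.067 above 6000. In the same ranges core and cap genes had medians of 0.15 (9 genes), 0.17 (14 genes), 0.068 (7 genes) and -0.12 (1 gene, Psmd11). With length and GC content corrected for (an alternative added once the data had been seen), 29 of 31 estimates were above 0 and the median fell to 0.078, with none called. In whole DRG all 4 medians over all genes lay between -0.0085 and 0.018.

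**Figure D4:**
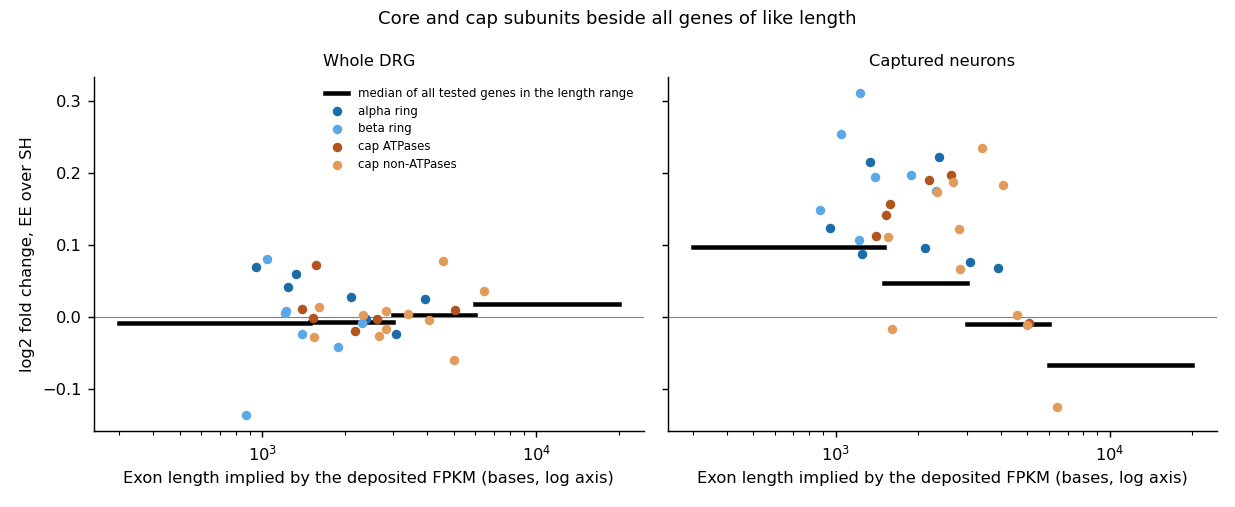
Log2 fold change of EE over SH (y axis) of each core and cap gene against its exon length (x axis, log axis), in whole DRG (left) and captured neurons (right); black lines are medians of all tested genes in each length range. In captured neurons the lines step from 0.097 to -0.067, and most subunits lie above the line of their range.

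Cell type markers also leaned with housing in captured neurons, although only Fabp7 was called among them and several sums overlapped. The median log2 fold change was 0.46 over 10 large neuron markers (9 above 0; summed 8214 to 10282 CPM in SH and 10615 to 14582 in EE), -0.39 over 10 nociceptor markers (8 below 0; 3220 to 3833 CPM in SH and 2568 to 3268 in EE) and 0.11 over 7 pan-neuronal markers (6 above 0; 4946 to 5176 CPM in SH and 5696 to 5806 in EE). It was 0.17 over 8 endothelial markers (8 above 0; 113 to 123 CPM in SH and 114 to 135 in EE) and -0.12 over 8 Schwann cell markers (1 above 0; 939 to 1153 CPM in SH and 829 to 1028 in EE). It was 0.25 over 14 macrophage markers (11 above 0; 55.4 to 78.2 CPM in SH and 64.5 to 86.2 in EE), and 0.094 over 8 satellite glia markers (6 above 0; 2297 to 2586 CPM in SH and 2833 to 3117 in EE), of which Fabp7 was called (0.80, adjusted p 0.0322, edgeR quasi-likelihood test, Benjamini-Hochberg adjusted). Of the lymphocyte and neutrophil markers, Cd3e, Cd3g, Nkg7 and Ccl5 were at 0 in at least 1 captured library. In whole DRG, the sum of large neuron markers was lower in EE (14551 to 15536 CPM in SH and 13427 to 14097 in EE), with none called. Their median was only -0.019 (4 above 0 and 6 below). The pan-neuronal sum was also lower (8415 to 8436 CPM in SH and 7949 to 8193 in EE), with a median of -0.030 (1 above 0 and 6 below). Nociceptor sums overlapped (3501 to 3940 and 3647 to 3768), with a median of 0.019 (6 above 0 and 4 below). The part of cell makeup in the lean of the core and cap was not tested.

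Other protein-quality genes in captured neurons were read beside the subunits. Of 15 assembly and associated factors 11 were above 0 (median 0.066, none called), the smallest p being that of Pomp, the chaperone that matures the core (75.4 ± 8.37 CPM in SH, 94.2 ± 4.66 in EE, SD, n = 3; log2 fold change 0.32). The assembly chaperone Psmg3 had a higher estimate (0.66, SE 0.26) at 1.28 ± 0.0746 CPM in SH and 2.01 ± 0.372 in EE (SD, n = 3), and the inhibitor Psmf1 had -0.19. Of 15 regulators and ubiquitin genes 14 were tested and 9 were above 0 (median 0.031, none called), the smallest p being that of the shuttle factor Ubqln2 (-0.37). The COP9 signalosome, a complex related in structure to the lid, had 7 of 9 above 0 (median 0.14, none called), and the CCT chaperonin 8 of 8 (median 0.075, none called). Of 16 antigen presentation and interferon genes 8 were above 0 (median -0.0069, none called). In whole DRG none of these 5 lists held a called gene, with medians of 0.017, -0.033, -0.0098, -0.012 and 0.075 in the same order.

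The housing effect was then compared between preparations by the interaction term. No gene passed (0% of 17412; edgeR quasi-likelihood test, Benjamini-Hochberg adjusted; 11.7% at an unadjusted p under 0.05, and 119 genes with DESeq2), so no proteasome gene was shown to respond differently in captured neurons and whole DRG. The smallest p among the members were those of Psmb7 (difference of log2 fold changes 0.29, SE 0.11, adjusted p 0.323), Psmd13 (0.22, SE 0.094, adjusted p 0.384) and Psmc3ip (1.05, SE 0.48, adjusted p 0.412). The difference was above 0 for 27 of 31 core and cap genes, with a median of 0.13, beside -0.0089 over all 17412 genes. The share of all genes above 0 was not computed for this difference. The core and cap median was 0.068 without captured EE replicate 1 (-0.013 over all genes) and 0.063 without captured SH replicate 2 (-0.010).

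The exchange of active subunits was read as the number of immunoproteasome reads per 100 reads of the constitutive partner, which needs no scaling between libraries. Exon length was not corrected for, so the ratio is not one of levels per length. In whole DRG, Psmb8 had 13.7, 15.8 and 15.3 reads per 100 of Psmb5 in SH and 12.5, 16.9 and 16.7 in EE. Psmb9 had 2.63, 2.21 and 2.75 per 100 of Psmb6 in SH and 3.12, 3.07 and 2.49 in EE, and Psmb10 had 11.99, 12.8 and 12.9 per 100 of Psmb7 and 10.5, 13.5 and 12.7. The mean log2 ratios differed by 0.032, 0.19 and -0.049 (EE minus SH; exact two-sided permutation p 0.9, 0.3 and 0.8), within the spread of the libraries.

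In captured neurons, Psmb8 had 62.5, 65.4 and 56.8 reads per 100 of Psmb5 in SH and 52.0, 55.9 and 57.4 in EE, and Psmb10 had 3.32, 3.4002 and 3.64 per 100 of Psmb7 and 3.397, 3.81 and 3.04. Psmb9 had 1.73, 2.25 and 0.983 per 100 of Psmb6 in SH and 0.970, 0.946 and 0.946 in EE, all EE libraries lying below all SH libraries by a margin set by SH replicate 3. The log2 ratios differed by -0.16, -0.023 and -0.71 (exact two-sided permutation p 0.2, 0.9 and 0.1). The last, that of Psmb9 to Psmb6, was -0.45 without SH replicate 2 and -1.03 without SH replicate 3. With 3 libraries against 3 the smallest p possible is 0.1, and over the 6 tests the adjusted values ran from 0.6 to 0.9.

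**Figure D5:**
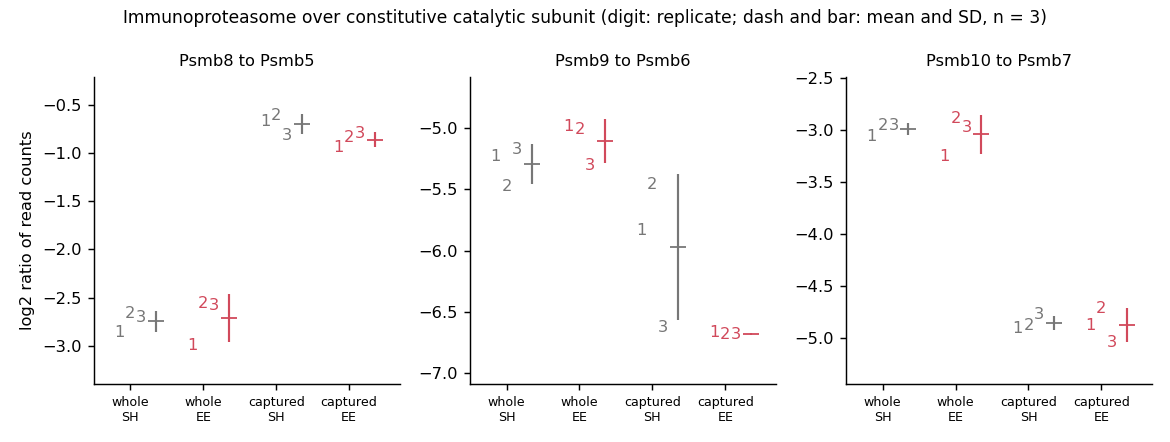
Log2 ratio of read counts (y axis, with its own range per panel) of each immunoproteasome catalytic gene to its constitutive partner in every library (digits are replicate numbers, dash and bar the mean and SD, n = 3). The ratio of Psmb8 to Psmb5 lies higher in captured neurons (52.0 to 65.4 reads per 100) than in whole DRG (12.5 to 16.9), and that of Psmb10 to Psmb7 lower. In SH, Psmb8 itself had 11.7 CPM in whole DRG and 9.87 in captured neurons, with overlapping libraries, and Psmb5 had 78.0 and 16.0. Psmb10 had 29.7 and 6.39 CPM, and Psmb7 237 and 185. Capture, kit, read length and lane cannot be told apart in these values.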

How the data were processed

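The members and gene lists were chosen with earlier results of these data known. Read counts per gene name were deposited by the authors, 1 table per preparation, with whole-number counts; whole-DRG columns, whose names hold the word Sham, were assigned by their housing and replicate number. Per the submitters' processing notes, the build was mm10 and the tools included HTSeq 0.6.0, TopHat2 2.0.12 and Bowtie2 2.2.3, with no role stated. The 5 summary rows, which name no gene, were left out; reads outside any feature were 47.05 to 47.57% for whole ganglia and 27.98 to 36.29% after capture. The FPKM of whole DRG are the authors' values. The authors' second captured table holds a signal that scales each library's counts by a single factor, with no length term, and was used as such.

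EE was compared with SH within each preparation by the edgeR 4.0.16 quasi-likelihood test (R 4.3.3, TMM, filterByExpr, Benjamini-Hochberg at 0.05), and between preparations by the interaction. CPM scale counts to the reads in the genes tested times the TMM factor. The single-gene CPM set against each other between preparations and the captured levels per length scale counts to all reads in genes, without that factor. The marker sums of the 2 preparations keep it. Ratios used 0.5 added to each count. Alternatives were DESeq2 1.42.0, limma 3.58.1 (voom, and the authors' second tables on the log2 scale after adding 1 or 0.1), other scalings, filters and thresholds, lane 3 alone, a replicate block and leaving out each library. Length and GC correction used splines with 4 degrees of freedom (91.1% and 89.9% of tested genes had values).

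Named in full were the active-site genes of both forms, all activators, the 2 genes with the smallest p per role of more than 3 genes, and genes past the threshold; Psmd12, Psmd11 and Psmc3ip were added after their values were seen. Positions are from GENCODE vM21 (GRCm38). Replicate numbers pair whole-DRG libraries by shared lane (deviations correlated at 0.33, 0.14 and 0.12 within numbers). SH replicate 3 of whole DRG correlated better with EE replicate 2 (0.19) than with its own number.

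Tested on simulated data with 200 changed genes, whole DRG gave 7 false among 186 calls, with 98% of the 2-fold and 81% of the 1.5-fold changes found. Captured neurons gave 21 false among 169, with 89% and 59% found. In 5 further simulations of each, false calls were 6.57 to 11.1% and 4.70 to 11.9% of calls, above the nominal 5% in most, while 4.78 to 5.21% and 4.58 to 5.02% of unchanged genes had an unadjusted p under 0.05.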

Additional observations from a re-analysis of the deposited data

How the results depend on the processing

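No proteasome gene was called in whole DRG or for the difference between preparations under any alternative run. In captured neurons Psmb7 was called with DESeq2 and without a filter, and no proteasome gene on leaving out any library. In lane 3 alone only Psmc3ip, a symbol match that is not a subunit, was called. All genes called in whole DRG numbered 32 with the replicate block (22 with length and GC corrected too), 48 without a filter, and 0 with library size alone or any setting of the second table. In captured neurons they numbered 0 with the replicate block (1 with length and GC corrected too), 505 with DESeq2, 902 without a filter, 1 at a minimum average log2 CPM of 3, 658 in lane 3 alone, 106 at a threshold of 0.1, and 168, 55 and 306 from the second table (1 added, 0.1 added, no filter). For the difference they numbered 119 with DESeq2, 457 without a filter and 13 at a threshold of 0.1. Leaving out 1 library gave 0 to 2, 0 to 602 and 0 to 233, the last 2 highest without captured EE replicate 1. The block changed no call on a proteasome gene. Captured libraries share only a number (correlations 0.084, 0.0025 and 0.11), and not every one correlated best with its own number.

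In lane 3 alone the medians of core and cap were 0.036 and 0.041 and their summed log2 ratios 0.055 and 0.051. Without length, Psmb5 stood at 55.2% (whole) and 15.0% (captured) of the core median. Signs turned for small values. In whole DRG, Psmb7 was -0.0022 with library size alone and without a filter, -0.0038 from the second table, and -0.021 with length and GC corrected (-0.022 with the block), and Psme3 was 0.0014 with DESeq2 or its size factors and 0.00022 at the minimum of 3. In captured neurons, in lane 3 alone Psme2 was -0.070 and Psme4 0.095; with length and GC corrected Psme3 was -0.0091 (-0.0092 with the block) and Psme4 0.032 (0.031), and Psme3 was -0.00093 with voom.

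Leaving out each library gave these ranges in whole DRG: Psmb5 -0.22 to -0.071, Psma5 0.0039 to 0.14, Psmc6 0.029 to 0.16, Psme1 -0.28 to -0.061, Psmb6 -0.15 to 0.026, Psmb7 -0.039 to 0.036, Psmb8 -0.24 to 0.10, Psmb9 -0.016 to 0.28, Psmb10 -0.15 to 0.094, Psme2 -0.011 to 0.12, Psme3 -0.072 to 0.057, Psmc4 -0.089 to 0.033, and the log2 ratios of Psmb8 to Psmb5 -0.044 to 0.17 and Psmb10 to Psmb7 -0.12 to 0.056. In captured neurons they were Psmb8 -0.14 to 0.053, Psme1 -0.18 to 0.095, Psme2 -0.052 to 0.29, Psme3 -0.016 to 0.026, Psme4 -0.064 to 0.042, the activator median -0.026 to 0.051 and the log2 ratios of Psmb10 to Psmb7 -0.11 to 0.057 and Psmb9 to Psmb6 -1.03 to -0.45. The causes were not tested. Psmb9, Psma8 and Psmb11 are limited by their low read counts.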
